A study of Mus musculus with 4 samples.

Results

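The genes described here encode the proteins of the mitochondrial ribosome. They were chosen as the genes whose platform symbol starts with Mrpl or Mrps followed by a number, the usual names for the large and the small subunit. Of 16593 genes on the array, 76 met this rule, 47 with Mrpl and 29 with Mrps symbols, and they were read by 110 of the 25697 probes. Where several probes read a gene, the probe with the highest mean log2 intensity over the 4 arrays represents it. All 76 symbols equalled the RefSeq symbol of their gene identifier.

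The study, on turning epiblast stem cells into ES cells with small molecules, compared 2 parnate/mAMFGi samples with 2 EpiSC samples of the mouse. The labels call the parnate/mAMFGi cells converted mouse ESCs. These were kept on irradiated mouse embryonic fibroblast (MEF) feeders in DMEM with 10% fetal bovine serum and 1000 units/ml LIF, the cytokine on which mouse embryonic stem cells are usually grown. EpiSCs, pluripotent cells of the epiblast kind, were kept on the same kind of feeders in DF12 with 20% KSR and 10 ng/ml bFGF. Parnate is tranylcypromine, an inhibitor of monoamine oxidases and of the histone demethylase LSD1. The sources used here do not spell out mAMFGi and give no strain, dose or duration. Conversion, culture medium and group cannot be told apart in this design. Total RNA was measured on Illumina bead arrays, and each value is a linear intensity as processed by the authors. No source used here says that feeders were removed before RNA was taken, and in such samples fewer cells of a type and less RNA per cell cannot be told apart.

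The mitochondrial ribosome makes the few proteins encoded by mitochondrial DNA, which are core subunits of the respiratory chain and of ATP synthase. Its RNAs come from mitochondrial DNA, whereas all of its proteins are encoded in the nucleus, made on cytosolic ribosomes and imported. The small subunit binds the mRNA and decodes it, and the large subunit joins the amino acids and releases the chain at the inner membrane. Some of the proteins descend from bacterial ribosomal proteins and others were added in the lineage of mitochondria. Naive embryonic stem cells are known for using mitochondrial respiration together with glycolysis, whereas EpiSCs rely mostly on glycolysis.

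The arrays of a group were close to each other. Pearson's r of log2 intensity over all probes was 0.998 between the parnate/mAMFGi arrays and 0.996 between the EpiSC arrays, and ran between 0.942 and 0.945 across groups. Array medians were 52 and 52 for parnate/mAMFGi and 50 and 50.3 for EpiSC. Most cell identity markers, though not all, moved with the labels. Of 8 naive embryonic stem cell markers, 7 were higher in parnate/mAMFGi cells. Dppa5a, Zfp42 and Esrrb led them with log2 fold changes of 8.57, 5.49 and 5.06. Of 8 EpiSC markers, 5 were lower, with Lefty1 at −3.20 and Fgf8 at −2.74. The other way, 2 were higher, Pou3f1 at 1.19 and Otx2 at 0.59. Of 14 measured fibroblast markers, 12 were higher in parnate/mAMFGi cells and 1 was lower. Their summed intensity was 8813.1 and 8393.1 on the parnate/mAMFGi arrays, against 3696.3 and 3044.4 on the EpiSC arrays. Lox, Col6a1 and Col1a1 led them with log2 fold changes of 4.23, 2.98 and 2.21, and 3 of the 14 had under 100 intensity units on all 4 arrays. The part of feeder RNA in the results on mitochondrial ribosomal protein genes was not tested.

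More mitochondrial ribosomal protein genes were higher than lower in parnate/mAMFGi cells. A gene is called changed where limma's adjusted p, corrected by Benjamini-Hochberg over all 25697 probes, was under 0.05. By this rule 34 of the 76 genes were higher and 13 lower, while 29 did not pass. That is 44.7% higher, where 20.2% of all genes were called higher, and 17.1% lower, where 21.2% of all genes were called lower. The median log2 fold change, parnate/mAMFGi minus EpiSC, was 0.23 over the 76 genes and 0.02 over all genes.

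Most changes were small. Of the 76 genes, 3 were called higher by 2-fold or more (Mrpl15, Mrps18b and Mrpl20), and 1 gene, Mrpl9, was called lower by that much. Of all 16593 genes, 848 were called higher and 1049 lower by 2-fold or more. Both parnate/mAMFGi arrays lay above both EpiSC arrays for 41 of the 76 genes, and below both for 17. Over all genes the corresponding shares were 35.5% above and 30.7% below.

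Dim genes move little on these arrays, and 68 of the 76 genes reached 100 intensity units on at least 1 array, a level chosen after seeing the data. Of these 68, 33 were called higher (48.5%) and 12 lower (17.6%). Among all genes that reached 100 units on an array, 34.6% were called higher and 40.0% lower. The other 8 genes (Mrpl19, Mrpl21, Mrpl32, Mrpl45, Mrpl51, Mrpl57, Mrps14 and Mrps36) were below that level on all 4 arrays. Among them Mrpl51 was called higher, with 78.5 and 79.6 units on the parnate/mAMFGi arrays and 53.7 and 59.2 on the EpiSC arrays, and Mrpl57 was called lower.

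**Figure D1:**
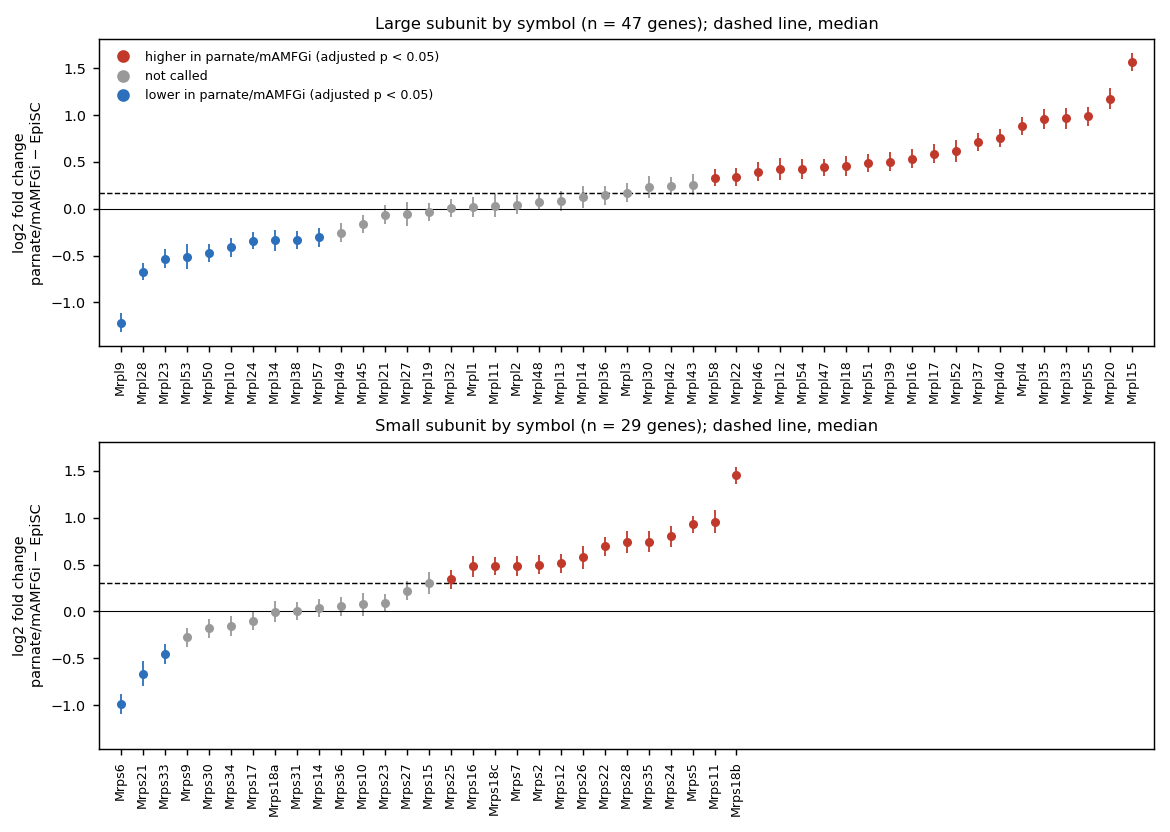
Log2 fold change (parnate/mAMFGi minus EpiSC, vertical axis) of each of the 47 large-subunit genes (upper panel) and 29 small-subunit genes (lower panel), with the standard error from limma as the bar and the subunit's median as the dashed line. Large-subunit genes run from −1.22 for Mrpl9 to 1.56 for Mrpl15, and small-subunit genes from −0.99 for Mrps6 to 1.45 for Mrps18b.

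In the large subunit, 20 of 47 genes were higher in parnate/mAMFGi cells (42.6%), 10 were lower (21.3%) and 17 did not pass. The median log2 fold change was 0.17. In the small subunit, 14 of 29 were higher (48.3%), 3 were lower (10.3%) and 12 did not pass, with a median of 0.30. The difference between the subunits was not tested, and its order rested on the probe chosen for each gene. With the mean of all probes of a gene, the large subunit had a median of 0.24 and the small subunit 0.22.

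Among large-subunit genes the largest rise was that of Mrpl15, which encodes the counterpart of a bacterial protein of the large subunit core. Mrpl15 had 151.8 and 156.2 intensity units on the parnate/mAMFGi arrays and 49.7 and 54.6 on the EpiSC arrays, a log2 fold change of 1.56 ± 0.10 (SE, n = 2 each; limma adjusted p = 6.48e-09). The groups did not overlap, and the EpiSC values lay close to the array medians, where a remaining background makes a fold too small.

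Mrpl20, whose bacterial counterpart binds ribosomal RNA early in assembly of the large subunit, followed. Mrpl20 had 3367.3 and 3387.6 units in parnate/mAMFGi cells and 1321.7 and 1693.4 units in EpiSCs, a log2 fold change of 1.17 ± 0.11 (SE, n = 2 each; limma adjusted p = 8.42e-07). Mrpl55, a large-subunit protein, had 350.6 and 332 units in parnate/mAMFGi cells against 160.4 and 184.3 units in EpiSCs, a log2 fold change of 0.99. Both genes were well separated between groups, and in both EpiSC replicate 2 was the brighter of the EpiSC arrays.

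Mrpl33 and Mrpl35 encode small proteins with bacterial counterparts. Mrpl33 had 5407 and 5679.5 units in parnate/mAMFGi cells and 2508.4 and 3212 in EpiSCs, a log2 fold change of 0.97. Mrpl35 had 207.2 and 199.4 units in parnate/mAMFGi cells and 115.3 and 94.3 in EpiSCs, at 0.96. Neither gene's groups overlapped.

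Around the peptidyl transferase centre, where amino acids are joined, 2 of 5 measured genes were higher and 0 were lower by limma's adjusted p (0 at an unadjusted p under 0.05). Mrpl4, whose bacterial counterpart reaches into the exit tunnel, had 965.8 and 883.7 units in parnate/mAMFGi cells and 484.1 and 519.4 in EpiSCs, a log2 fold change of 0.88. Mrpl16, which lies where the tRNAs bind, had 566.7 and 560.1 units in parnate/mAMFGi cells and 362.7 and 416.4 in EpiSCs, at 0.54. Mrpl2, Mrpl3 and Mrpl27 did not pass, with values between −0.06 and 0.17. Beside this site and those below, 20.2% of all genes were called higher and 21.2% lower. The shares of genes that reached 100 units on an array were 34.6% and 40.0%. Each site holds few genes, and none was tested against these shares.

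The stalk, which recruits the translation factors, had 1 gene in each class. Mrpl12, the stalk's flexible protein, had 4172.3 and 3826.9 units in parnate/mAMFGi cells and 2626.7 and 3378 in EpiSCs, a log2 fold change of 0.42 ± 0.12 (SE, n = 2 each; limma adjusted p = 0.00918). Mrpl10, which anchors it, had 2142.4 and 1831.9 units in parnate/mAMFGi cells and 2607.3 and 2663.7 in EpiSCs, at −0.41 ± 0.10 (SE, n = 2 each; limma adjusted p = 0.00422). Mrpl11, at the base, had 1012.4 and 1123 units in parnate/mAMFGi cells and 899.7 and 1206.2 in EpiSCs, so its groups overlapped (0.03).

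Neither stalk call held in every fit. Mrpl12 missed the threshold with EpiSC replicate 1 left out (limma adjusted p = 0.107), and also with parnate/mAMFGi replicate 1 (0.149) or replicate 2 (0.0557) left out. Mrpl10 missed it under 2 alternatives, 1 of them with parnate/mAMFGi replicate 2 left out.

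Around the exit tunnel, 3 of 6 measured genes were higher and 2 lower. Mrpl39, Mrpl47 and Mrpl22 rose, with log2 fold changes of 0.50, 0.44 and 0.34. Mrpl23, the counterpart of a bacterial protein at the tunnel's mouth, had 4550.5 and 4521.1 units in parnate/mAMFGi cells and 5993.4 and 7175.5 in EpiSCs, at −0.53. Mrpl24 had 1534.6 and 1457.7 units in parnate/mAMFGi cells and 1837.5 and 1951.4 in EpiSCs, at −0.34. Mrpl45, which holds the ribosome at the inner membrane, was dim and not called, with 59.5 and 59.2 units in parnate/mAMFGi cells and 70.3 and 62.5 in EpiSCs. Mrpl24 lost its call without parnate/mAMFGi replicate 1 (adjusted p = 0.0505) and without replicate 2 (0.111).

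In the central protuberance, the crest of the large subunit that touches the small one, 3 of 5 genes were higher and 1 lower. Mrpl40, Mrpl18 and Mrpl46 rose, at 0.76, 0.45 and 0.39, Mrpl38 fell, at −0.34, and Mrpl48 was not called. Mrpl58, a peptidyl-tRNA hydrolase built into the large subunit, rose by 0.33.

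Mrpl9 fell most of all 76 genes. Its product is the counterpart of a bacterial protein near the L1 stalk of the large subunit. Mrpl9 had 1476 and 1258.8 units in parnate/mAMFGi cells and 3225.2 and 3117.5 in EpiSCs, a log2 fold change of −1.22 ± 0.10 (SE, n = 2 each; limma adjusted p = 1.77e-07). The geometric mean of the EpiSC arrays was 2.33 times that of the parnate/mAMFGi arrays.

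Mrpl28 had 4515 and 4322.1 units in parnate/mAMFGi cells and 6751.9 and 7320.4 in EpiSCs, a log2 fold change of −0.67. Mrpl50, with no bacterial counterpart, had 1258 and 1330.6 units in parnate/mAMFGi cells and 1772.2 and 1814.2 in EpiSCs, at −0.47. In both the groups were apart by more than the arrays of either group. Mrpl53, also without a bacterial counterpart, had 3138.3 and 3051.1 units in parnate/mAMFGi cells but 3694.1 and 5274.3 in EpiSCs, at −0.51, and its EpiSC arrays differed widely. Mrpl53 missed the threshold with EpiSC replicate 2 left out (limma adjusted p = 0.0762), and also with parnate/mAMFGi replicate 1 (0.0781) or replicate 2 (0.103) left out. Mrpl34, Mrpl38 and Mrpl57 completed the falls of the large subunit, at −0.34, −0.34 and −0.31.

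**Figure D2:**
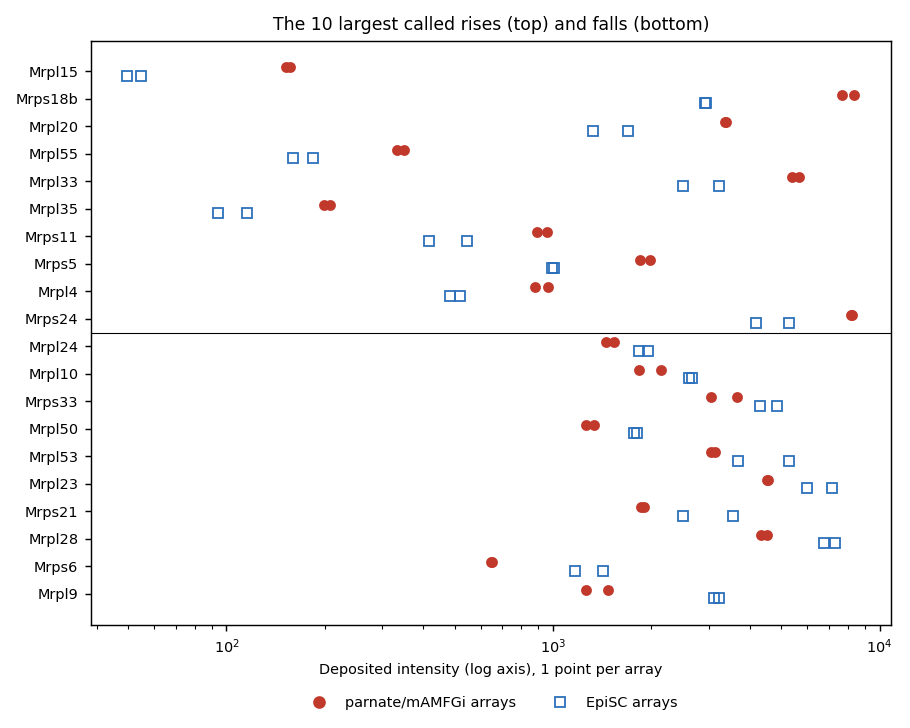
Deposited intensity on each array (horizontal log axis, 1 point per array) of the 10 genes with the largest called rise (top) and the 10 with the largest called fall (bottom). Filled circles are the 2 parnate/mAMFGi arrays and open squares the 2 EpiSC arrays, and the groups do not overlap for any of these 20 genes, which were chosen by their fold change.

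The strongest rise in the small subunit was that of Mrps18b, 1 of 3 mammalian paralogs of the bacterial S18 protein. Mrps18b had 8375.3 and 7667.2 units in parnate/mAMFGi cells and 2919 and 2940 in EpiSCs, a log2 fold change of 1.45 ± 0.09 (SE, n = 2 each; limma adjusted p = 1.29e-08), 2.74-fold. Mrps18c had 3189.4 and 3282.7 units in parnate/mAMFGi cells and 2299.6 and 2321.3 in EpiSCs, at 0.49. Mrps18a had 721.6 and 692.7 units in parnate/mAMFGi cells between the EpiSC values of 637.8 and 785.5, a difference near 0. Thus 2 of the 3 paralogs passed, and the differences between them were not tested. In mammalian ribosome structures the Mrps18a and Mrps30 proteins sit in the large subunit. Mrps30 was not called, with 3224.4 and 2969.7 units in parnate/mAMFGi cells and 3334.6 and 3687.8 in EpiSCs.

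Mrps11 and Mrps5, counterparts of bacterial proteins of the platform and the body of the subunit, also rose. Mrps11 had 955.8 and 896 units in parnate/mAMFGi cells and 415.8 and 545.5 in EpiSCs, a log2 fold change of 0.96 ± 0.12 (SE, n = 2 each; limma adjusted p = 1.08e-05). Mrps5 had 1975.8 and 1845.1 units in parnate/mAMFGi cells and 996.2 and 1008 in EpiSCs, at 0.93. Mrps24, the mitochondrial counterpart of a bacterial protein at the mRNA entry, had 8210.6 and 8173.4 units in parnate/mAMFGi cells and 4171.5 and 5273.1 in EpiSCs, at 0.80. The groups were apart in each.

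Of 5 genes of the decoding region and head, 2 were higher and 0 were lower by limma's adjusted p (1 at an unadjusted p under 0.05, Mrps9). Mrps12, the counterpart of the bacterial decoding protein in which streptomycin resistance arises, had 1909.9 and 2015.8 units in parnate/mAMFGi cells and 1259.6 and 1499.1 in EpiSCs, at 0.51. Mrps7, which starts assembly of the head in bacteria, had 1977.9 and 2064.7 units in parnate/mAMFGi cells and 1310.7 and 1587.1 in EpiSCs, at 0.49. Mrps9, Mrps10 and Mrps14 did not pass, and Mrps9 lay near the threshold at −0.28 (limma adjusted p = 0.0510). The other rises were those of Mrps35, Mrps28, Mrps22, Mrps26, Mrps2 and Mrps16, between 0.48 and 0.74. The count of 14 higher genes also holds Mrps25, by its brightest probe alone: its other 2 probes were called lower.

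Only 3 small-subunit genes fell. Mrps6, the counterpart of the bacterial partner of S18, had 650.4 and 644.1 units in parnate/mAMFGi cells and 1164.1 and 1419.3 in EpiSCs, a log2 fold change of −0.99 ± 0.11 (SE, n = 2 each; limma adjusted p = 2.45e-06). In bacteria S6 and S18 bind the ribosomal RNA as a pair. Here Mrps6 was lower, while Mrps18c, the paralog counted as the S18 counterpart, was higher. Mrps21 had 1897 and 1854.6 units in parnate/mAMFGi cells and 2497.5 and 3547.7 in EpiSCs, at −0.67. Mrps33 had 3050.4 and 3652.5 units in parnate/mAMFGi cells and 4305.4 and 4864.4 in EpiSCs, at −0.46, and it lost its call without parnate/mAMFGi replicate 1 (adjusted p = 0.108).

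Several genes differed little between groups. Mrps31 had 2075.6 and 1949.5 units in parnate/mAMFGi cells and 2079.9 and 1919.9 in EpiSCs, and Mrpl1 had 1087.9 and 1254.3 in parnate/mAMFGi cells and 1052.1 and 1262.8 in EpiSCs. Mrpl36 had 2286.7 and 2335.7 units in parnate/mAMFGi cells and 1953.6 and 2240.8 in EpiSCs. Mrpl32 was dim, with 35 and 34.1 units in parnate/mAMFGi cells and 32.9 and 36.1 in EpiSCs, as was Mrps36 at 38 and 36.7 units in parnate/mAMFGi cells and 37.9 and 34.2 in EpiSCs. The Mrps36 protein is now known as a part of the oxoglutarate dehydrogenase complex. The smallest change called among the 76 genes was that of Mrpl57, at −0.31, and standard errors were near 0.10.

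The large subunit's brightest genes did not move one way. Mrpl28 and Mrpl23 fell, and Mrpl17 had 6947.8 and 5981.5 units in parnate/mAMFGi cells and 4167.6 and 4422.2 in EpiSCs, at 0.59. Their order by brightness depends on the probes and says nothing of RNA amounts.

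The genes were also split by whether the protein has a bacterial counterpart, by a textbook assignment that left Mrpl55 and Mrps36 out. Of the S18 paralogs, Mrps18c was counted as the counterpart, since it takes the place of S18 in the ribosome, and Mrps18a and Mrps18b were counted as added proteins. Of 45 genes with a counterpart, 20 were higher and 8 lower, with a median log2 fold change of 0.17. Of 29 genes without, 13 were higher and 5 lower, with a median of 0.24. By the same rule, 20.2% of all genes were called higher and 21.2% lower. The shares of genes that reached 100 units on an array were 34.6% and 40.0%. The median of the 16 small-subunit genes with a counterpart was 0.48, and that of the 12 without was 0.16. These differences were not tested. With Mrps18a and Mrps30 counted in the large subunit and Mrps36 left out, the medians were 0.14 over 49 large-subunit genes and 0.41 over 26 small-subunit genes.

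The replicates of EpiSC differed in a shared direction. EpiSC replicate 2 was above replicate 1 for 65 of the 76 genes (85.5%), where 50.1% of all genes were so. The median difference between these arrays was 0.19 on the log2 scale over the 76 genes and 0.00 over all genes. Replicate 2 of parnate/mAMFGi was above replicate 1 for 23 genes (30.3%), with a median difference of −0.04. As deviations from each gene's mean, the medians of the 76 genes were 0.14 and 0.10 on the parnate/mAMFGi arrays and −0.18 and −0.04 on the EpiSC arrays. The same was seen for nuclear subunits of complexes I, III, IV and V (64 of 76, 84.2%) and for cytosolic ribosomal proteins (51 of 63, 81.0%).

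The size of the shift depended on these arrays. Without EpiSC replicate 1 the median log2 fold change was 0.08 in the large and 0.20 in the small subunit, and without EpiSC replicate 2 it was 0.27 in the large and 0.42 in the small subunit. The count of genes called higher was 30 without EpiSC replicate 1 and 38 without EpiSC replicate 2. The count of genes called lower was 7 without parnate/mAMFGi replicate 2 and 8 without parnate/mAMFGi replicate 1, and in these fits the share of all genes called lower was also smaller, at 16.9% and 17.1%. The cause of the difference between the EpiSC arrays was not tested.

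**Figure D3:**
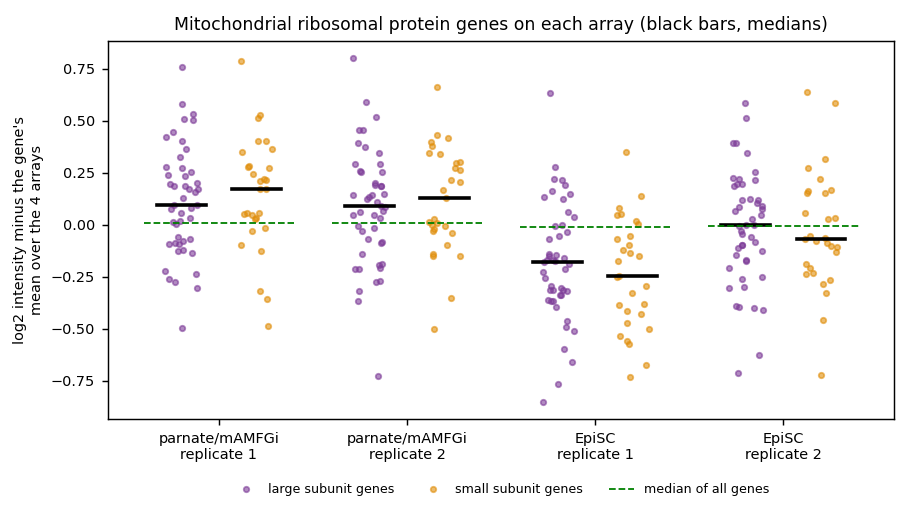
Log2 intensity of each mitochondrial ribosomal protein gene minus its own mean over the 4 arrays (vertical axis) on each array, with large-subunit genes in purple, small-subunit genes in orange, black bars at their medians and green dashed lines at the median of all genes. The bars lie above the dashed line on both parnate/mAMFGi arrays (0.10 and 0.09 large, 0.17 and 0.13 small), and on EpiSC replicate 1 they lie lowest (−0.18 large, −0.24 small).

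Probes of a gene did not always agree. Of the 76 genes, 22 had several probes (56 in all), and in 10 of these the probes disagreed in call. Over all 110 probes, 51 were called higher and 15 lower, where 19.7% of all 25697 probes were called higher and 18.7% lower. Mrps25 was the 1 gene with calls in opposite directions. Its brightest probe had 470.8 and 470 units in parnate/mAMFGi cells and 341.4 and 403.2 in EpiSCs (log2 fold change 0.34), whereas its other probes had −0.52 and −0.63, and the mean of its 3 probes was called lower (−0.27, limma adjusted p = 0.0208). It stands among the genes called higher through the brightest probe alone.

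Mrpl49 also had probes that differed in sign. Its brightest probe had 1113.5 and 1021.3 units in parnate/mAMFGi cells and 1214.8 and 1334.1 in EpiSCs and was not called (−0.26). Its others gave 0.81 and 0.65, both called, and −0.01. Mrpl10, whose brightest probe fell, had a second probe with 2205.4 and 2171 units in parnate/mAMFGi cells and 2109.4 and 2101.8 in EpiSCs (0.06, not called).

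For Mrpl3, Mrpl13, Mrpl43, Mrps10 and Mrps31 the brightest probe was not called and a dimmer one was called higher. Mrpl43 had 2288.9 and 2279.9 units in parnate/mAMFGi cells and 1692.5 and 2160.5 in EpiSCs on its brightest probe (0.26), and its other probe gave 0.47. Mrpl13 had 3800.4 and 3843.4 units in parnate/mAMFGi cells and 3322.7 and 3923 in EpiSCs (0.08), Mrpl3 had 1645.4 and 1454.2 units in parnate/mAMFGi cells and 1295 and 1459.6 in EpiSCs (0.17), and Mrps10 had 843.4 and 817.9 units in parnate/mAMFGi cells and 683.5 and 910.5 in EpiSCs (0.07). The second probe of Mrps33 (−0.20) and 1 of the 3 probes of Mrpl51 (0.29) did not pass where the brightest did. By contrast, both probes of Mrpl33, Mrpl37, Mrps5, Mrps11 and Mrps18b were called higher.

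**Figure D4:**
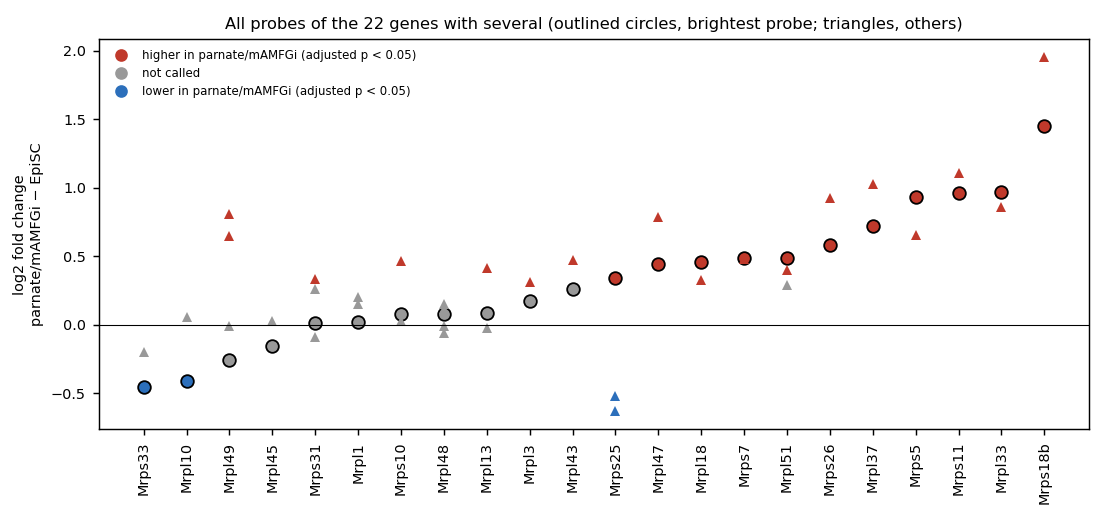
Log2 fold change (parnate/mAMFGi minus EpiSC, vertical axis) of all probes of the 22 genes with several, where outlined circles are the brightest probe of a gene and triangles the others. Mrps25 has probes on both sides of 0 that were called, and the probes of Mrpl49 spread between −0.26 and 0.81.

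Promoter sequences, 300 bases around the start of a gene in RefSeq (GRCm38.p6), were found for 67 of the 76 genes, and 25 of these had the start of another gene on the opposite strand within 1 kb. Letters of 4 motifs were searched on both strands, each named for the factors that bind such letters. NRF1 is a main activator of nuclear genes for mitochondrial proteins, ETS includes GABP, and the E-box is bound by MYC and others. The letters GCGCANGCG (NRF1) were in 15 of the 67 promoters (22.4%) and in 7.03% of all promoters, or 9.63% of those of protein-coding genes. CCGGAAG (ETS) was in 26 (38.8%), against 9.93% of all and 12.9% of protein-coding promoters. AANATGGCG (YY1) was in 11 (16.4%), against 2.76% and 3.64%, and CACGTG (E-box) in 5 (7.46%), against 8.09% and 8.91%. Median GC content was 58.0% in the 67 promoters, 52.7% in all and 56.3% in protein-coding ones, so the shares are not matched for base composition. A match is a description and not a binding site.

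Counts of the motifs by direction are given with no test. NRF1 letters were in 6 of 29 promoters of higher genes, 4 of 12 of lower genes and 5 of 26 of genes that did not pass. ETS letters were in 13, 5 and 8 of them. YY1 letters were in 5 promoters of higher genes, in none of the lower and in 6 of those that did not pass, and E-box letters in 3, none and 2.

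Stretches upstream of 5 genes are shown, in RefSeq letters 5′ to 3′ on the gene's strand, for higher and lower genes with a motif and for a pair of genes that share a promoter; capitals mark the motif letters, which can be read on either strand.
Mrpl12, chr11:120484517-120484636, plus strand: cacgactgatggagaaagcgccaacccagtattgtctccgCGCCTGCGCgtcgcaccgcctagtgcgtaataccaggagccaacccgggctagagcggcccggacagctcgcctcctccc
Mrpl20, chr4:155802758-155802877, plus strand: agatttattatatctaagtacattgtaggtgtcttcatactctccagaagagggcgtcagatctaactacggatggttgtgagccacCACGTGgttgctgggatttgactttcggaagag
Mrpl9, chr3:94443298-94443327, plus strand: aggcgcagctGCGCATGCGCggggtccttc
Mrps21, chr3:95871585-95871614, minus strand: gaaagtccagCGCCTGCGCtcagcaccgaa
Mrps11 with Mrpl46, chr7:78783090-78783130, plus strand: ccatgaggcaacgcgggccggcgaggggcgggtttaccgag

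The NRF1 letters stood 80 bases before the start of Mrpl12, 28 and 27 bases before that of Mrpl9, where they overlap on the 2 strands, and 90 bases before that of Mrps21. Thus NRF1 letters occurred upstream of a gene that rose (Mrpl12) and of others that fell (Mrpl9, Mrps21). The E-box letters of Mrpl20 stood 33 bases before its start.

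The starts of Mrps11 and Mrpl46 lie 42 bases apart on opposite strands, so the stretch printed is all that separates them. This stretch held none of the 4 motifs. The longer promoter sequence used for the motif counts held YY1 letters for Mrps11 and none of the 4 motifs for Mrpl46. Both genes rose. Mrpl46 had 1985 and 1975.5 units in parnate/mAMFGi cells and 1390.8 and 1631 in EpiSCs, a log2 fold change of 0.39, and Mrps11 had 0.96. The pair therefore moved the same way, Mrps11 by more, with no test of that difference.

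Of the 25 genes with a neighbour on the opposite strand, 19 had a measured partner. For 11 genes that rose, the partner was higher in 8, lower in 1 and not called in 2; Mrps11 and Mrpl46 count as each other's partner here. For the 2 that fell, the partner was lower in 1 (Zfp189 beside Mrpl50) and not called in 1. For 6 that did not pass, 1 partner was higher, 3 were lower and 2 did not pass. Over all genes 20.2% were called higher and 21.2% lower. Whether genes moved with their partners was not tested.

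Mrps12 lies 147 bases from Sars2, which charges mitochondrial serine tRNA. Sars2 had 184.3 and 156 units in parnate/mAMFGi cells and 81.8 and 106.1 in EpiSCs, a log2 fold change of 0.86 beside 0.51 for Mrps12. Ndufb5 of complex I, beside Mrpl47, rose by 0.43. Mrpl51 and Ncapd2, a condensin subunit, were called in opposite directions, at 0.49 and −1.14.

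The nearest measured genes, 5 on either side where the chromosome held them, were counted around the 3 genes that rose by 2-fold or more and the 4 with the largest falls. Counts are by limma's adjusted p, and over all genes 20.2% were higher and 21.2% lower. Around Mrpl15, 3 of 9 neighbours were higher and 1 lower (median log2 fold change 0.09). Around Mrps18b, 1 of 10 was higher and 6 lower (median −0.60), although Mrps18b itself rose. Around Mrpl20, 1 of 10 was higher and 2 lower (median 0.07).

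Among the falls, Mrpl9 had 0 of 10 neighbours higher (0 at an unadjusted p under 0.05) and 5 lower, with a median of −0.43. Mrps6 had 1 higher and 3 lower (median 0.04), and Mrpl28 had 2 higher and 4 lower (median −0.18). Mrps21, on chromosome 3 as Mrpl9 is, had 1 higher and 8 lower (median −0.83). The counts thus differed from gene to gene, and whether any of these genes moved with its neighbourhood was not tested.

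Other parts of mitochondrial gene expression were counted in the same fit. Of 4 measured mitoribosomal proteins with other symbols, 1 rose and 1 fell. Ptcd3, a pentatricopeptide protein of the small subunit, had 511.6 and 546.8 units in parnate/mAMFGi cells and 178.3 and 173.2 in EpiSCs, a log2 fold change of 1.59. Dap3, a GTP-binding protein of the small subunit, had 4574.2 and 4629.8 units in parnate/mAMFGi cells and 7159.6 and 6169 in EpiSCs, at −0.53.

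Of 23 measured assembly factors, 8 were higher (34.8%) and 1 lower (4.3%), with a median of 0.10. For comparison, 20.2% of all genes were called higher and 21.2% lower. Among genes that reached 100 units on an array, the shares were 34.6% and 40.0%. Of the 23, 6 had under 100 units on all 4 arrays. The RNA methyltransferases Mrm3 and Mrm1 (0.71 and 0.65) and Mpv17l2 (0.68) changed most. Of 12 translation factors, 5 were higher (41.7%) and 0 were lower by limma's adjusted p (0 at an unadjusted p under 0.05). Their median was 0.27, and 4 of the 12 had under 100 units on all 4 arrays. Tufm, the elongation factor that brings tRNAs to the ribosome, had 3364.9 and 3201.7 units in parnate/mAMFGi cells and 2450.3 and 2268.5 in EpiSCs, at 0.48. Gfm2, a recycling factor, gave 0.55 and Tsfm, the exchange factor of Tufm, 0.38.

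Of 17 mitochondrial aminoacyl-tRNA synthetases and their partners, 8 were higher (47.1%) and 5 lower (29.4%), with a median of 0.16. Beside these lists, 20.2% of all genes were called higher and 21.2% lower. Among genes that reached 100 units on an array, the shares were 34.6% and 40.0%. Ears2 was at 1.17, Sars2 at 0.86 and Rars2 at 0.71, and 6 of the 17 had under 100 units on all 4 arrays. Of 18 genes of mitochondrial transcription and RNA, 10 were higher (55.6%) and 4 lower (22.2%), with a median of 0.42. Elac2, which cuts tRNA ends, rose by 1.78, and the mRNA-stabilising partners Lrpprc and Slirp by 1.57 and 1.30. Mitochondrial DNA maintenance was split, with 4 of 13 higher and 4 lower (30.8% each, median 0.10). Among them were Tk2 at −0.87, Twnk at 0.76 and Polg2 at −0.58.

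Of 12 measured transcription factors of nuclear mitochondrial genes, 4 were higher (33.3%) and 2 lower (16.7%), with a median of 0.11. The shares of all genes were 20.2% higher and 21.2% lower. Among genes that reached 100 units on an array they were 34.6% and 40.0%. Of the 12, 7 had under 100 units on all 4 arrays, and dim genes move little on these arrays. Nrf1 had 516.4 and 549.1 units in parnate/mAMFGi cells and 369.6 and 366.7 in EpiSCs, at 0.53. The GABP subunits moved apart. Gabpa was at 0.73, and Gabpb1 had 195.4 and 206.1 units in parnate/mAMFGi cells and 511 and 520.8 in EpiSCs, at −1.36.

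Of 25 measured import genes, 9 were higher (36%) and 5 lower (20%), with a median of 0.21. Over all genes 20.2% were called higher and 21.2% lower. The shares of genes that reached 100 units on an array were 34.6% higher and 40.0% lower. Of the 25 import genes, 5 had under 100 units on every array. Timm10 (1.10) and the matrix chaperonins Hspd1 (0.94) and Hspe1 (0.86) led the import genes. Of 76 nuclear subunits of the complexes that also hold mitochondrially encoded subunits, 35 were higher (46.1%) and 10 lower (13.2%), with a median of 0.21. Ndufb9, Atp5g1 and Cox8c led them at 1.98, 1.80 and 1.36. Cox8c was dim, with 86.1 and 80.2 units in parnate/mAMFGi cells and 31.3 and 33.7 in EpiSCs. Of the 76 subunits, 10 had under 100 units on all 4 arrays. Succinate dehydrogenase, all of whose subunits are nuclear, had 0 of 3 measured genes higher by limma's adjusted p (0 at an unadjusted p under 0.05) and 2 lower, with Sdhd at −0.65 and Sdhc at −0.47, while Sdhb gave −0.13 and was not called. No probe was matched to a mitochondrially encoded gene, and these were not analysed here.

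Over all genes 20.2% were called higher and 21.2% lower. Of the 76 mitochondrial ribosomal protein genes, 34 were higher and 13 lower (median 0.23). Of the 63 measured cytosolic ones, 8 were higher (12.7%) and 16 lower (25.4%), with a median of −0.16. Of these 63, 6 had under 100 units on every array. The shares of genes that reached 100 units on an array were 34.6% higher and 40.0% lower. Both cytosolic shares were below these. No test of the difference between mitochondrial and cytosolic genes was made. The largest changes among cytosolic ones were those of the paralogs Rpl39l, at 3.98, and Rpl3l, at 2.01, and of Rpl22, at −1.42. Rpl39l had 564.3 and 647.1 units in parnate/mAMFGi cells and 35.6 and 41.4 in EpiSCs.

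**Figure D5:**
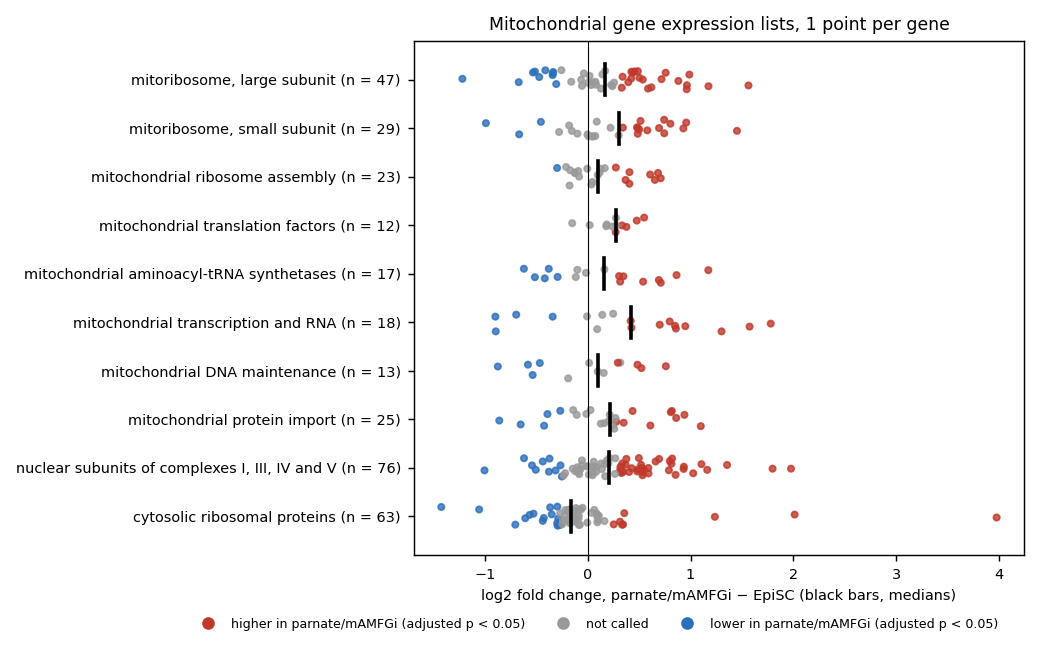
Log2 fold change (parnate/mAMFGi minus EpiSC, horizontal axis) of each gene of the mitochondrial ribosome and of 8 other lists, with 1 point per gene and black bars at the medians. The medians run from −0.16 for cytosolic ribosomal proteins to 0.42 for mitochondrial transcription and RNA, and each list holds genes on both sides of 0.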

How the data were processed

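Total RNA of 2 parnate/mAMFGi and 2 EpiSC samples, called biological replicates in the labels, was made into biotin-labelled cRNA with the Illumina TotalPrep kit, per the labels' protocols. The values used are the deposited intensity of each probe, processed by the authors on a linear scale. The sources used here name no software, background step or normalization. The lowest value was 25.5, so a background remains that makes folds of dim probes too small. A second deposited table has 8 columns of values whose names match no label, and they were not used. No source says whether samples came from separate cultures, so p-values measure the spread between these samples, and 4 arrays limit the precision.

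Intensities were log2-transformed with no pseudocount, further normalization or filter and fitted with limma 3.58.1 in R 4.3.3 (lmFit, eBayes) over all 25697 probes, with Benjamini-Hochberg adjustment at 0.05. Each probe had 2 residual and 11.8 prior degrees of freedom. The fit was tested on simulated data. Symbols came from the platform annotation (23978 probes with 1 symbol, 1719 with none), and promoters from RefSeq GRCm38.p6. Alternatives changed normalization, background, filter, variance prior, probe choice, subunit membership, pairing and arrays.

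The members and lists were chosen with earlier results of these data known. Array values are given for the 10 largest called rises and falls, the 3 brightest genes of either subunit, 14 genes fixed by name, the 5 uncalled genes with the smallest change and genes whose probes disagree; from each other list the 3 genes with the largest change are named. Zfp189, Ndufb5, Ncapd2, Otx2 and members given by fold change alone were named after their values were seen.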

Additional observations from a re-analysis of the deposited data

How the results depend on the processing

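The count of mitochondrial ribosomal protein genes called higher, 34, lay between 34 and 37 under the alternatives on all 4 arrays with all members kept, and between 26 and 38 with 1 array left out. The count called lower, 13, was less stable. It was 8 with normexp at offset 16 and quantile normalization, where 6 large-subunit genes were lower, and ran from 7 to 15 with 1 array left out, with 4 to 10 in the large and 2 to 5 in the small subunit. With the mean of all probes of a gene, 5 small-subunit genes were lower, and Mrpl49 and Mrps25 turned to 0.30 (limma adjusted p = 0.0255) and −0.27 (0.0208). Of 28 named genes called changed, 22 kept call and direction under each alternative; the exceptions were Mrpl10, Mrpl12, Mrpl24, Mrpl53, Mrps25 and Mrps33. Mrpl43 passed under 6 alternatives and Mrpl49 under 2 with its sign kept. With the replicate number as a block, 35 genes were higher and 14 lower. Same-numbered samples did not deviate together (correlation −0.0574), so the numbers were not read as pairs. The leave-out fits also have fewer arrays, and the causes of these differences between fits were not tested. Probes near the array medians carry little signal over background, which limits the 8 dim genes and Mrpl15.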
